A study of Mus musculus with 4 samples.

Results

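Lysosomal cathepsins and membrane proteins, 10 of the 41079 genes in the deposited count table, were followed across 4 lung libraries. They were chosen by symbol and comprised 5 cysteine cathepsins (Ctsb, Ctsk, Ctsl, Ctss and Ctsz), 2 aspartic cathepsins (Ctsd and Ctse) and 3 membrane proteins (Lamp1, Lamp2 and Cd63). All 10 were found and all 10 had at least 10 counts in every library. Lung RNA was sequenced from WT and Rab44-KO mice, either normal or induced with ovalbumin (OVA), with 1 library for each of the 4 groups. The mice were female littermates on a C57BL/6 background, 8 to 14 weeks old, and the Rab44-KO line carried a CRISPR/Cas9 edit of Rab44, which encodes a large Rab GTPase. OVA-induced mice of either genotype were sensitised by intraperitoneal OVA with alum on days 0, 7 and 14, were then challenged with intranasal OVA for 4 days, and had their lungs collected on day 21. By their labels the normal mice were untreated, yet the attached protocol also names a PBS challenge, and the sources do not say how many mice stand behind each library.

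Lysosomes are acidic organelles that break down proteins taken up from outside or delivered from within the cell. Cathepsins are their main proteases: cysteine and aspartic cathepsins are made as inactive precursors and become active in the acid lumen, and several of them process antigens for MHC class II or are released to cut extracellular matrix. LAMP proteins line the lysosomal membrane with a coat of sugar chains, and CD63 is a tetraspanin of late endosomes, lysosomes and secretory granules. In the lung these genes are known for high expression in macrophages, which clear inhaled particles and dead cells.

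The 4 libraries held between 18112901 and 19910236 counts. Rab44 itself had 251 counts in the normal WT and 1 count in the normal Rab44-KO library, and 810 and 0 counts in the OVA-induced WT and Rab44-KO libraries, which leaves no library against its genotype label. Surfactant genes, which mark alveolar type 2 cells of the lung, were abundant throughout (Sftpc, 262219, 237887, 361981 and 181126 counts in normal WT, normal Rab44-KO, and the WT and Rab44-KO libraries after OVA induction). With 1 library per group no difference below has a replicate check, and each comparison is between libraries and not between conditions. No p-value is given. Intervals are 95% counting intervals, exact for ratios of 2 libraries and by the delta method for differences between responses, and cover counting error only. Fold changes (log2FC) are log2 ratios of library-scaled counts (CPM) after scaling by the trimmed mean of M values (TMM), and levels are compared between genes only in TPM, which accounts for transcript length. Values given for a gene without further labels run in a fixed order, from normal WT to normal Rab44-KO, then WT after OVA induction and Rab44-KO after OVA induction. In bulk lung RNA, fewer cells of a type and less RNA per cell cannot be told apart.

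By TPM, Lamp1 was the most abundant of the 10 genes in both normal libraries and Ctsd in both OVA-induced libraries. Lamp1 stood at 777 TPM in normal WT and 798 TPM in normal Rab44-KO lungs, with Ctsd next at 654 and 701 TPM. In OVA-induced WT lungs Ctsd stood at 2285 TPM and Lamp1 at 805 TPM, whereas in OVA-induced Rab44-KO lungs the same genes stood at 807 and 701 TPM. Ctse was last in every library, between 2.10 and 3.58 TPM. Ctsk was ninth in 3 libraries, at 37.6 to 51.2 TPM, and reached 367 TPM in OVA-induced WT lungs, above Ctsl and Lamp2. The plot of levels by gene shows how the OVA-induced WT library stood apart for 6 genes and not for Lamp1, Lamp2, Ctsl or Ctse.

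**Figure D1:**
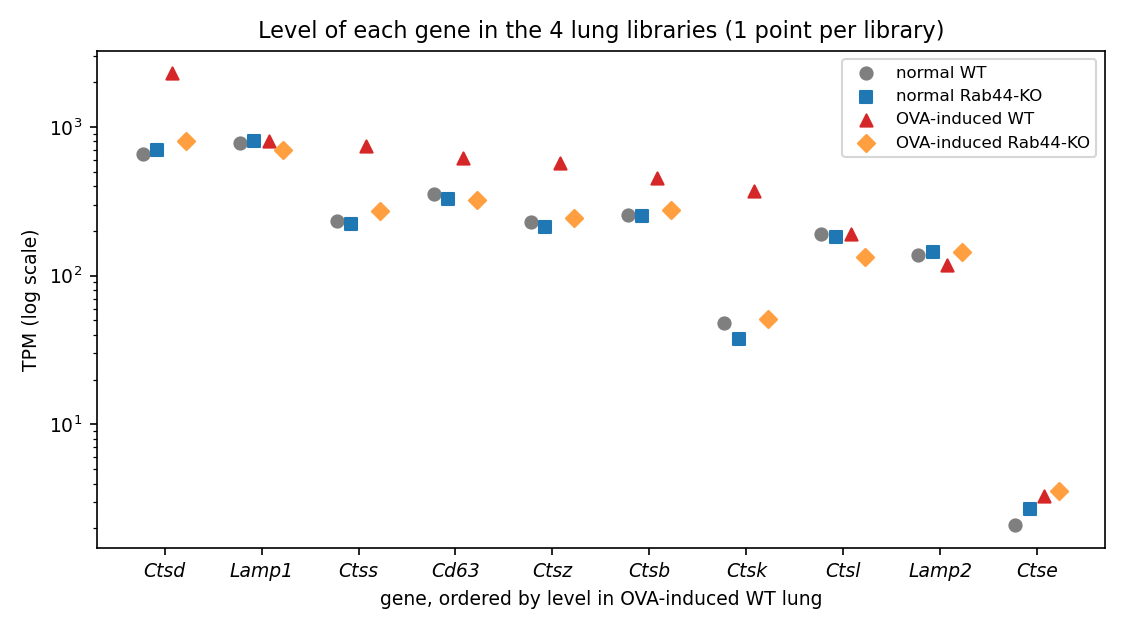
Level of each of the 10 genes in TPM (log axis) in the 4 lung libraries, 1 point per library, with genes ordered by their level in OVA-induced WT lung. For Ctsd, Ctss, Cd63, Ctsz, Ctsb and Ctsk the OVA-induced WT point lies above the other 3, which lie close together, for example 2285 TPM of Ctsd against 654 to 807 TPM.

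After OVA induction, 4 of the 5 cysteine cathepsins were over 2-fold lower in the Rab44-KO than in the WT library, beside 7.34% of all genes tested. Of these, Ctsb fell inside 2-fold when scaled by total counts (log2FC -0.95) and in TPM (-0.69). Ctsk encodes cathepsin K, a strong collagen- and elastin-degrading protease best known from osteoclasts, and it differed most among the 10 genes. Normal WT lungs held 614 counts of it and normal Rab44-KO lungs 449, and the OVA-induced lungs held 5349 and 598. Only the OVA-induced WT library was high, and the OVA-induced Rab44-KO library lay between the normal ones in counts and CPM. In TPM the OVA-induced Rab44-KO library lay slightly above both, at 51.2 against 48.0 and 37.6. The difference between the OVA-induced libraries was 9.0-fold (log2FC -3.17, -3.29 to -3.05). The gene lies at chr3:95499256-95509362 on the plus strand of GRCm38 (positions are those of GENCODE M21).

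Ctss encodes cathepsin S, which degrades the invariant chain of MHC class II in antigen-presenting cells. It had 2717, 2422, 9848 and 2894 counts in the 4 libraries. The OVA-induced WT library was again the single high one, and the OVA-induced difference was 3.43-fold (log2FC -1.78, -1.84 to -1.72). Ctss lies at chr3:95526786-95556403. Ctsz, a carboxypeptidase of myeloid cells at chr2:174427493-174439039, had 2660, 2291, 7540 and 2601 counts in the same order. Its level in OVA-induced Rab44-KO lungs was 2.92-fold below that in OVA-induced WT lungs (log2FC -1.55, -1.61 to -1.48).

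Ctsb and Ctsl are broadly expressed lysosomal endopeptidases, at chr14:63122462-63145923 and chr13:64359337-64370890. Ctsb had 9808, 8947, 19601 and 9726 counts, and its OVA-induced difference of 2.03-fold (log2FC -1.02, -1.06 to -0.99) straddled the 2-fold line within its counting interval. Ctsl had 5529, 4914, 6242 and 3499 counts. Here the OVA-induced Rab44-KO library was the lowest of the 4, and the log2FC of -0.84 (-0.90 to -0.78) stayed inside 2-fold.

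The aspartic cathepsins differed from each other in abundance and in their values. Ctsd encodes cathepsin D, the main aspartic protease of the lysosome, and lies at chr7:142375911-142388038 on the minus strand. It had 10124 counts in each of the normal libraries, 40287 in WT lungs after OVA induction and 11415 in Rab44-KO lungs after it. The OVA-induced difference was 3.55-fold (log2FC -1.83, -1.86 to -1.80), so that 1 library again held nearly all of the spread. Ctse encodes cathepsin E, an endosomal protease of immune and gastric epithelial cells, at chr1:131638306-131675505. It had 36, 43, 64 and 56 counts, and its OVA-induced log2FC of -0.20 (-0.75 to 0.34) was not distinguishable from 0 at this depth.

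Of the membrane proteins, Cd63 was over 2-fold lower in OVA-induced Rab44-KO lungs and the LAMP genes were not. Cd63, at chr10:128900989-128912822, had 3963, 3398, 7914 and 3320 counts, a difference between the OVA-induced libraries of 2.40-fold (log2FC -1.26, -1.32 to -1.20). Lamp1, at chr8:13159161-13175338, had 14006, 13420, 16519 and 11546 counts and a log2FC of -0.53 (-0.56 to -0.49). Lamp2, at chrX:38401357-38456454, held the narrowest range of the 10 genes, with 7519, 7394, 7391 and 7182 counts, a log2FC of -0.05 (-0.10 to -0.00), and a highest-to-lowest ratio of 1.10 in CPM. With the trend along transcript length removed, Lamp1 and Lamp2 stood at -0.27 each, and with TPM they stood at -0.20 and 0.28. Under the same settings Cd63 stood at -0.91 and -0.94, inside 2-fold. LAMP2 is required for the fusion of autophagosomes with lysosomes and for chaperone-mediated autophagy. Across the 10 genes the same ratio was 11.2 for Ctsk, 3.95 for Ctsd, 3.83 for Ctss, 3.10 for Ctsz, 2.40 for Cd63, 2.06 for Ctsb, 1.80 for Ctsl, 1.76 for Ctse and 1.44 for Lamp1.

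**Figure D2:**
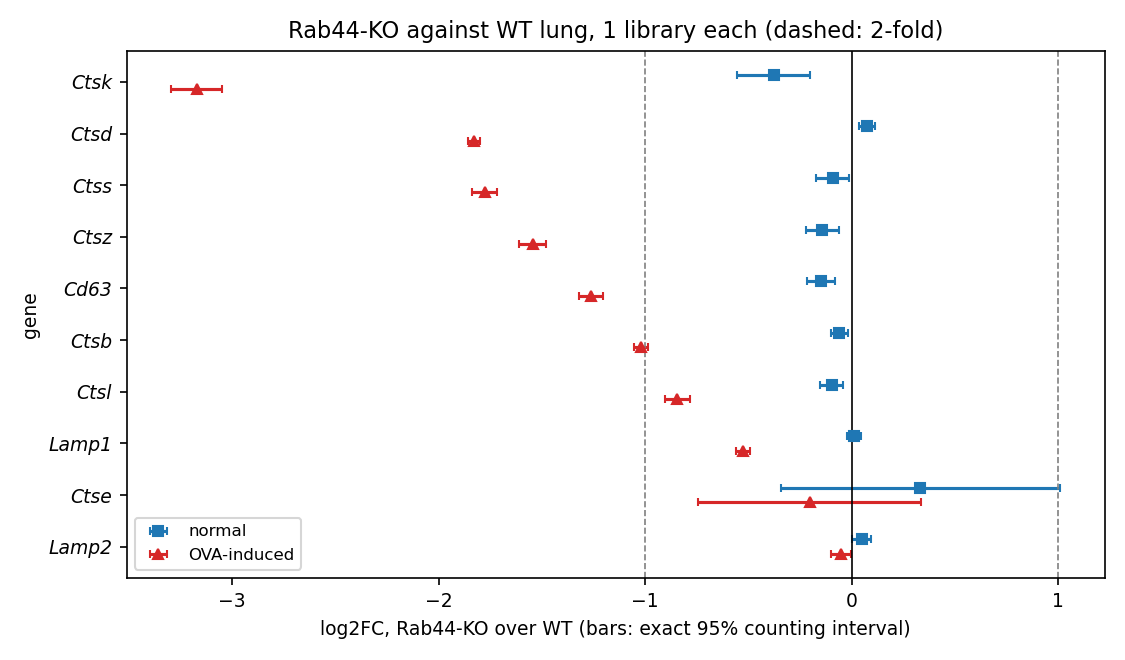
log2FC of Rab44-KO over WT lung for each gene in the normal (blue squares) and OVA-induced (red triangles) comparison, 1 library per group, with exact 95% counting intervals as bars and 2-fold marked by dashed lines. The normal values lie between -0.38 and 0.33, and 6 of the 10 OVA-induced values lie beyond 2-fold lower, from -1.02 for Ctsb to -3.17 for Ctsk.

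In all, 6 of the 10 genes were over 2-fold lower in the Rab44-KO than in the WT library after OVA induction and 0 were over 2-fold higher. The number lower was 5 with total counts, 5 with the trend along transcript length removed and 4 with TPM. Among all 19259 genes whose larger count was 10 or more, 7.34% lay past 2-fold on the lower side and 8.40% on the higher side. The median log2FC was -1.14 over the 10 genes and -0.02 over all genes tested. All 10 values were below 0 on this scale, but the sign of Lamp2 changed with total-count scaling and with TPM, and that of Ctse with TPM and with removal of the trend along transcript length. In place of TMM, TPM with a pseudocount of 0.1 moved the log2FC of the typical gene between the OVA-induced libraries by 0.33, the median over all genes. Removing the length trend moved it by 0.10. With TPM and that pseudocount, 2602 genes were over 2-fold higher and 777 lower, against 1617 and 1413 by TMM.

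Between the normal libraries the 10 genes differed little. None of the 10 (0 of 10) was over 2-fold lower or higher, where 2.0% and 2.77% of 18718 genes were. The median log2FC was -0.08 over the 10 genes and 0.00 over all. Ctsk had the lowest value, at -0.38 (-0.56 to -0.20), followed by Cd63 at -0.15 (-0.22 to -0.08) and Ctsz at -0.14 (-0.22 to -0.06). The 5 cysteine cathepsins were all below 0, from -0.38 to -0.06. Ctsd at 0.07 (0.03 to 0.11), Lamp2 at 0.05 and Lamp1 at 0.01 were slightly above it. The value of Ctse, 0.33, had an interval from -0.34 to 1.01.

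The question of how OVA induction itself was reflected in each genotype was addressed by comparing OVA-induced with normal libraries. This comparison in WT shares the OVA-induced WT library with the one above, so the pair is not independent. In WT lungs 4 of the 10 genes were over 2-fold higher after OVA induction and 0 were lower, beside 8.99% and 5.20% of 19023 genes. These were Ctsk at 8.64-fold (log2FC 3.11, 2.99 to 3.23), Ctsd at 3.95-fold (1.98, 1.95 to 2.01), Ctss at 3.59-fold (1.85, 1.78 to 1.91) and Ctsz at 2.81-fold (1.49, 1.43 to 1.55). Ctsb and Cd63 lay just under the threshold, both at 1.98-fold (log2FC 0.99), and past 1.5-fold 7 of the 10 genes were higher, beside 15.4% of all genes. Ctse stood at 0.82 (0.21 to 1.45), Lamp1 at 0.23, Ctsl at 0.16 and Lamp2 at -0.04. The sign of Ctsl changed in TPM, where the median of all genes moved by -0.17, and that of Lamp2 with the length trend removed.

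In Rab44-KO lungs none of the same genes (0 of 10) was over 2-fold higher or lower after OVA induction, where 6.44% and 3.85% of 19073 genes were. The median log2FC was 0.05 over the 10 genes and -0.01 over all, beside 0.99 and 0.00 in WT. The highest values were those of Ctsk at 0.32 (0.14 to 0.50), Ctse at 0.29 (-0.31 to 0.89) and Ctss at 0.16 (0.08 to 0.24). Ctsd stood at 0.08, Ctsz at 0.09 and Ctsb at 0.03. Ctsl, Lamp1, Lamp2 and Cd63 stood below 0. Ctsl at -0.59 (-0.65 to -0.52) was the only one of the 10 beyond 1.5-fold, where 10.1% of all genes were lower, and it fell inside 1.5-fold in 6 of 7 alternative settings, reaching -0.46 with TPM. Lamp1 followed at -0.31 (-0.35 to -0.28). The values of Lamp2 and Cd63 were -0.14 and -0.13, and that of Cd63 turned to 0.04 with the length trend removed. By TPM the median of all genes moved by 0.12, with 1287 genes over 2-fold higher and 481 lower, against 1229 and 734 by TMM.

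The difference between the responses (Rab44-KO minus WT, in log2 units) was below -1 for 5 of the 10 genes and above 1 for 0, beside 9.14% and 8.98% of 19744 genes. It was -2.79 (-3.01 to -2.58) for Ctsk, -1.90 (-1.95 to -1.85) for Ctsd, -1.68 (-1.78 to -1.58) for Ctss, -1.40 (-1.51 to -1.30) for Ctsz and -1.11 (-1.20 to -1.03) for Cd63. Ctsb at -0.96 had an interval (-1.02 to -0.91) that included -1, and Ctsl at -0.75 and Lamp1 at -0.54 had intervals between that size and 0. The interval of Ctse (-1.35 to 0.29) included 0, and Lamp2 at -0.10 changed sign in TPM. Cd63 stood at -0.81 with TPM, which left 4 genes below -1, and at -0.83 with the length trend removed, where Ctsb stood at -1.01. No test with replicate error of this difference exists here, since each group is 1 library.

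**Figure D3:**
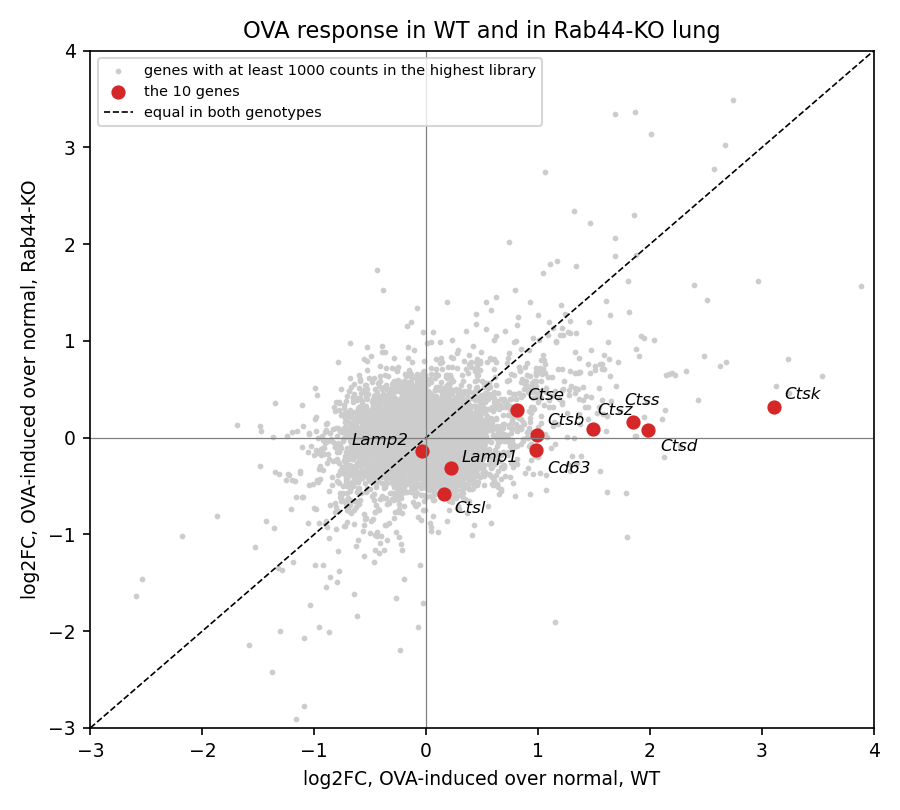
log2FC of OVA-induced over normal lung in WT (horizontal axis) and Rab44-KO (vertical axis) for the 10 genes (red) and for 5440 genes with at least 1000 counts in the highest library (grey), of which 30 lie outside the axes. The dashed line marks equal values; Ctsk, Ctsd, Ctss and Ctsz lie far to its right at 3.11, 1.98, 1.85 and 1.49 in WT but between 0.08 and 0.32 in Rab44-KO.

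Summed, the 7 cathepsins took 0.164% and 0.161% of all counts in the normal WT and Rab44-KO libraries, and 0.447% and 0.161% in the OVA-induced ones, so that 3 libraries lay at about the same share. By TPM, Ctsd made up 40.6% and 43.6% of the cathepsin sum in the normal WT and Rab44-KO libraries, and 49.6% and 45.1% in the OVA-induced ones. The 3 membrane proteins took 0.133%, 0.134%, 0.160% and 0.115% in the same order. Their sum thus varied less than that of the proteases.

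To see which genes ran most alike, the CPM of every gene with at least 100 counts in the highest library (13899 genes) were compared with those of each member that ranged over 2-fold, by the root mean square difference in centred log2 CPM over the 4 libraries. With 4 libraries of which 1 stands out, many genes can resemble a member, so the neighbours are a description. The nearest to Ctsd was Cd68 (0.0142), a glycoprotein of macrophage lysosomes, followed by C1qc (0.0490), a chain of complement C1q, and Lhfpl2 (0.0510). Ctss ran closest to C1qa (0.0577) and Cd68 (0.0607), with Ctsd itself next (0.0628). Ctsk was nearest to Adra2a (0.115), Tnfrsf9 (0.190) and Gpnmb (0.224), the last a lysosomal membrane glycoprotein of macrophages. The nearest to Ctsb were Lipa (0.0316), the lysosomal acid lipase, H2-DMa (0.0383), which helps load peptides on MHC class II, and Kmo (0.0521). Ctsz ran closest to Capg (0.0445), Dok2 (0.0446) and F7 (0.0461), and Cd63 to another cathepsin, Ctsw (0.0110), then Racgap1 (0.0248) and Hkdc1 (0.0499).

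Ctsk and Ctss lie 17423 bases apart on chromosome 3, so the genes around the pair were examined after their values were seen. Arnt, the upstream neighbour, had 1791, 1694, 1536 and 1744 counts. Golph3l had 802, 781, 783 and 759 counts and Ensa 2483, 2317, 2574 and 2123. Their log2FC between the OVA-induced libraries were 0.17 for Arnt, -0.05 for Golph3l and -0.29 for Ensa, against -3.17 and -1.78 for Ctsk and Ctss. Hormad1, the nearest downstream gene, had 0 counts in every library, and the noncoding Gm4349 had 2 to 4.

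Many lysosomal genes carry CACGTG, an E-box core recognised by TFEB and its relatives, near their start, so the 250 bases before the RefSeq start of the members were searched. RefSeq promoter sequences of GRCm38.p6 were matched for 8 of the 10 genes, and Ctsb and Ctse had no entry. The RefSeq start of Ctsd, Ctsl and Cd63 lies inside the GENCODE interval given above, whose longest transcript begins further upstream, so their windows lie wholly or mostly within the annotated gene. The motif reads the same on both strands and occurred in 6.02% of 32851 promoters. Ctsk and Ctss are shown as the neighbouring pair described above, Lamp1 for its motif number and Lamp2 because it varied least. Capitals mark CACGTG, and all are written 5′ to 3′ on the gene's strand, at chr3:95498960-95499209 and chr3:95526536-95526785 (plus), chr8:13158911-13159160 (plus) and chrX:38456461-38456710 (minus).
Ctsk: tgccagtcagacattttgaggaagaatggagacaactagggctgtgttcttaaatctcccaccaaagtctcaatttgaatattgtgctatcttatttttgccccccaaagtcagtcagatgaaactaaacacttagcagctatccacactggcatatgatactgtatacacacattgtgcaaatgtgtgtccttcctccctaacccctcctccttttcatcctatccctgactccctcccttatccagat
Ctss: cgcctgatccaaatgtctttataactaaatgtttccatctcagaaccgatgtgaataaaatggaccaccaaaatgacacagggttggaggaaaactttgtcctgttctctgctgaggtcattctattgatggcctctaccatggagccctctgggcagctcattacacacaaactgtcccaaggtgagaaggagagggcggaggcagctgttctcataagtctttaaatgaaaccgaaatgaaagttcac
Lamp1: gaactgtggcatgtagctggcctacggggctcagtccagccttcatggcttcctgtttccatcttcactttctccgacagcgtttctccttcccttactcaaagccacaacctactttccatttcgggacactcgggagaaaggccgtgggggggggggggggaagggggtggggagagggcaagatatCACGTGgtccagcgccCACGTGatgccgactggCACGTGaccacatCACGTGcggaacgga
Lamp2: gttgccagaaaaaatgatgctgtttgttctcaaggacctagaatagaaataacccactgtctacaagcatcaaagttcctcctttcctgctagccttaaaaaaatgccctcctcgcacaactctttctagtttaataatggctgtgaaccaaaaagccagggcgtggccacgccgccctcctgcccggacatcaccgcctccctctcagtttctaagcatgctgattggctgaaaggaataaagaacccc
Lamp1 held 4 copies, starting 61, 45, 28 and 15 bases before the RefSeq start, a number reached by 0.0213% of promoters (7 in all). Ctsd held 2, at 245 and 98 bases before its RefSeq start, a number reached by 0.429%, and the nearer one reads as follows at chr7:142387909-142387936 (minus).
Ctsd: cgcccgcgtctCACGTGacccgttgagg
Ctsl held 1, at 236 bases before its RefSeq start, and Ctsk, Ctss, Ctsz, Lamp2 and Cd63 held 0. The 8 windows held 0 matches on either strand to TCATGTG, a related motif of the MITF branch of that family, and to AGGAAGT, a core of ETS factors such as PU.1, which 3.25% and 7.69% of promoters held. A match is a string of letters and not a bound site, and an absence concerns this window only.

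Of the other 17 genes named as cathepsins in the table, 6 had at least 10 counts in the OVA-induced libraries and 1 of these was over 2-fold lower in Rab44-KO. That gene was Ctsw, a cathepsin of cytotoxic lymphocytes, with 119, 100, 235 and 98 counts (log2FC -1.27, -1.63 to -0.93). All 6 were below 0, with a median of -0.49. Ctsa, Ctsc and Ctsh were abundant and stayed inside 2-fold, at -0.69, -0.57 and -0.41, and Ctsf and Ctso stood at -0.38 and -0.21. Ctsc, cathepsin C, activates the serine proteases of granules, and it had 4821, 4423, 8281 and 5629 counts, the last being above both normal libraries.

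Other lysosomal gene lists were described in the same OVA-induced comparison, in which 7.34% of all genes were over 2-fold lower and 8.40% higher. Broad lists, taken from the cellular component terms in the deposited table after seeing the data and without the members, lay near those shares or below: 36 of 463 lysosome genes (7.78%) were lower and 5 higher, as were 19 and 2 of 306 lysosomal membrane genes (6.21% lower). Their medians were -0.26 and -0.24. In the smaller lists below, 2 of 19 or 2 of 23 genes is likewise near the share of all genes. Of 7 other lysosomal proteases, 2 were over 2-fold lower and 0 higher, with a median of -0.72: Dpp7 at -1.05 and Lgmn, the asparaginyl endopeptidase that processes cathepsins, at -1.03. Of 19 glycosidases 2 were lower (Gla, -1.53, and Hexa, -1.14) and 2 higher, with a median of -0.56. The higher ones were hyaluronidases, Hyal1 at 1.01 and Hyal3, with 16 and 51 counts. Of 17 lipases, sulfatases, phosphatases and nucleases 4 were lower and 0 higher, with a median of -0.43. They were Acp5 at -1.56, Dnase2a at -1.31, Pla2g15 at -1.25 and Lipa at -1.01. The counting intervals of Dpp7, Lgmn, Hyal1, Hyal3 and Lipa included 2-fold.

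Other listed genes deliver or assist these enzymes. Psap, the precursor of the saposins, had 20197, 20324, 50866 and 21715 counts (log2FC -1.24 between the OVA-induced libraries), and Npc2, the luminal cholesterol carrier, had 18154, 14399, 36656 and 16608 (-1.15). These were the 2 of 11 activators and sorting factors over 2-fold lower, with 0 higher and a list median of -0.34. Igf2r, the large mannose 6-phosphate receptor, stood at 0.40. Of 23 subunits of the proton pump that acidifies lysosomes, 2 were over 2-fold lower and 0 higher, and 21 were below 0, with a median of -0.67. Atp6v0d2, the subunit of osteoclasts and macrophages, stood at -1.83 and Atp6v1b1 at -1.32, the latter with an interval (-1.81 to -0.86) that included 2-fold.

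Of 32 other lysosomal membrane proteins, 5 were over 2-fold lower and 0 higher, and the median was -0.25, against -0.53 for the 3 membrane proteins followed here. The lower ones included Gpnmb (-2.98), the calcium channel gene Mcoln3 (-2.92), Cd68 (-1.86) and Mfsd12 (-1.10). The fifth was Lamp5, with 10 counts in OVA-induced WT and 0 in each of the other libraries. Of the 4 transcription factor genes of the TFEB family, Tfec was the one over 2-fold lower (-1.18), and Tfeb, Tfe3 and Mitf stood at -0.54, -0.24 and 0.08. The counting intervals of Mfsd12 and Tfec included 2-fold. In the plot of lists, the cysteine cathepsins, with a median of -1.55, lay to the left of the other enzyme lists.

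**Figure D4:**
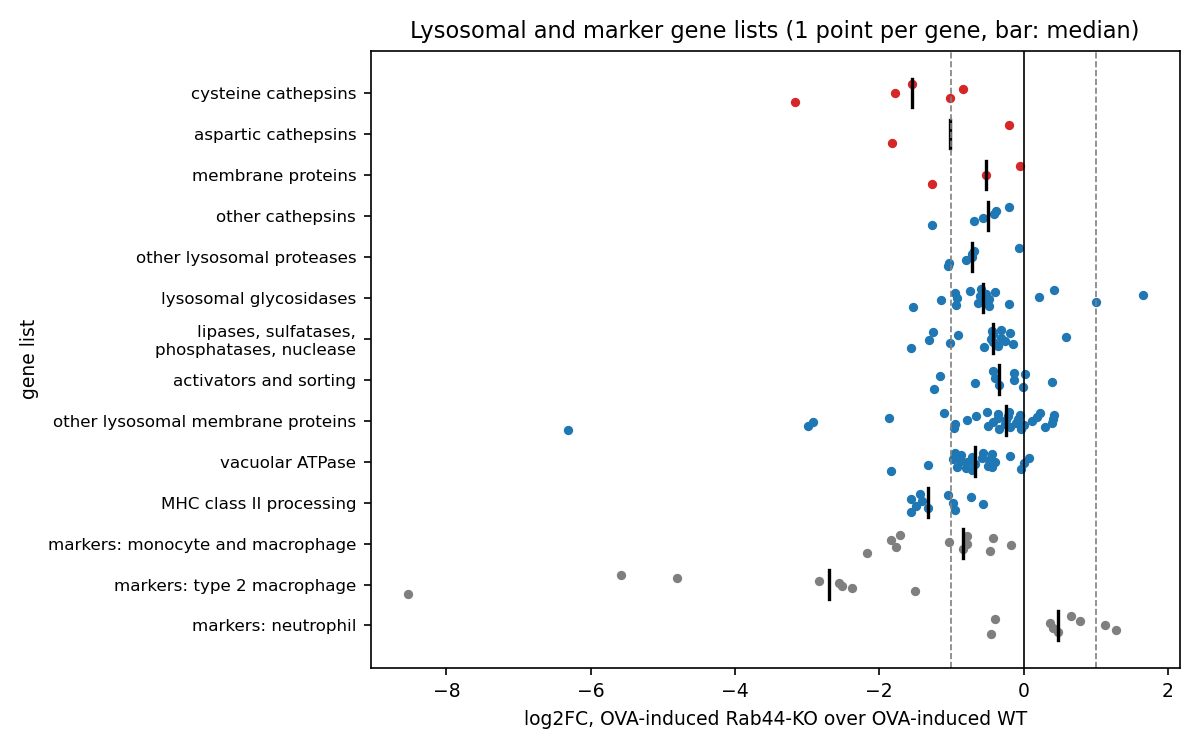
log2FC of Rab44-KO over WT lung after OVA induction for genes whose larger count was 10 or more, by list, 1 point per gene, with the list median as a black bar and 2-fold as dashed lines. The genes followed here are red, other lysosomal and antigen-processing lists blue and cell type markers grey; medians of the lists shown run from -2.69 for type 2 macrophage markers to 0.48 for neutrophil markers, and the lowest point among lysosomal membrane proteins is Lamp5, whose 0 counts leave its position undefined.

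Inhibitors of cysteine cathepsins did not share 1 direction. Cstb, encoding cystatin B, had 762, 708, 1467 and 504 counts (log2FC -1.55, -1.70 to -1.40, between the OVA-induced libraries). Cst3, encoding the secreted cystatin C, had 11164, 10826, 14125 and 7786 counts (-0.87), and Cst7 had 68 and 27 counts in the OVA-induced WT and Rab44-KO libraries. The stefin A genes ran the other way, with 75 and 198 counts of Stfa2l1 (log2FC 1.39), 8 and 18 of Stfa1 and 0 and 19 of Stfa2. The counting interval of Stfa1 included 0. Stefin A genes form a family of near-identical copies, so the split of counts among them is uncertain. In all 2 of the 7 tested inhibitors were over 2-fold lower and 3 higher.

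Markers of several cell types were also highest in the OVA-induced WT library. Sums here and in the next paragraph are in TPM, whereas log2FC are on the TMM scale. Against TMM, TPM raises Rab44-KO over WT between the OVA-induced libraries by 0.33 in log2 units. In that comparison 7.34% of all genes were over 2-fold lower and 8.40% higher by TMM. All 11 monocyte and macrophage markers were detected in every library, and their TPM summed to 367, 385, 928 and 498 in the 4 libraries. Between the OVA-induced libraries 5 of 11 were over 2-fold lower and 0 higher, with Ms4a7 at -2.17 and C1qb at -1.83. The 8 type 2 macrophage markers, none at 0, summed to 733, 731, 17193 and 1887 TPM, and 8 of 8 were over 2-fold lower, led by Chil4, Retnla and Ccl8. The authors treat Chil4 as marking Th2-type and eosinophilic inflammation, and the cells that made these transcripts were not identified. The 7 alveolar macrophage markers, none at 0, were mixed: they summed to 210, 254, 326 and 227 TPM, with 3 over 2-fold lower, such as Marco (-3.59), and 1 higher, Fabp1 (1.89). The 7 dendritic cell markers, none at 0, summed to 102, 111, 162 and 123 TPM. Of these 4 were over 2-fold lower and 0 higher, and 2 stood above 0, the highest at 0.77. The OVA-induced WT library was thus highest for the summed markers of each of these lists, as for Ctsk, Ctss, Ctsz and Ctsd, and the order of the other 3 libraries varied. The part of these cells in the members' values was not tested.

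Eosinophil markers, summing to 5.53, 9.03, 55.8 and 13.5 TPM, were also highest in OVA-induced WT lungs, with Epx and Prg3 at 0 in both normal libraries and Epx at 0 in OVA-induced Rab44-KO lungs. Neutrophil markers went another way and summed to 346, 443, 1843 and 2823 TPM, highest in OVA-induced Rab44-KO lungs, with Ly6g, Camp and Ngp at 0 in normal WT. The T cell list summed to 65.5, 68.3, 140 and 80.4 TPM and the B cell list to 228, 166, 432 and 315 TPM, with none at 0. Plasma cell markers, none at 0, summed to 32.6, 48.8, 984 and 356 TPM, and 4 of 4 were over 2-fold lower in Rab44-KO after OVA induction, with a median of -2.04. Of 8 club and goblet cell markers, none at 0, 5 were over 2-fold lower and 0 higher, with a median of -2.05 and Clca1 at -8.77. Yet the list summed to 121556, 123122, 77858 and 108173 TPM. In counts the OVA-induced WT and Rab44-KO sums lay closer, at 385701 and 408490. Alveolar type 2 markers, none at 0, summed to 47137, 46908, 57939 and 39484 TPM. By TMM 1 of 6, Sftpc (-1.01), was just over 2-fold lower while 5 were below 0. The margin of Sftpc is smaller than the shift of 0.33 between TMM and TPM. Platelet markers, none at 0, summed to 117, 78.7, 86.9 and 191 TPM, with 2 of 5 over 2-fold higher and a median of 0.87. Other lists were not highest in OVA-induced WT lungs. Mast cell and basophil markers summed to 116, 139, 80.4 and 129 TPM, and endothelial markers to 1983, 1957, 1653 and 2373 TPM. Alveolar type 1 markers summed to 3978, 3516, 2912 and 2532 TPM, and fibroblast markers to 771, 870, 799 and 803 TPM. The part of all these cells was not tested either.

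Some members share sequence with other annotated genes. Of the 150-base windows in GENCODE M21 transcripts, 28.1% of those of Ctsd also occur in Gm49369, a gene that overlaps it on the same strand and has no row in the count table. For Ctsl the share was 3.71% (Gm49230) and for Cd63 2.40% (Cd63-ps), and for the other 7 members it was 0. Exons of Ctsb, Ctsz and Lamp1 overlap those of Fdft1, Nelfcd and Grtp1 on the opposite strand, and those of Ctsl overlap the antisense Gm47123, which has no row in the count table. How the counting treated strand and reads with several matches is not given in the sources used here, so the counts of these genes are uncertain to that extent.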

How the data were processed

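Lung RNA of 4 groups, 1 library each, was analysed, and groups were taken from the labels. The authors sequenced paired 150-base reads from a directional kit. The submitters' processing notes name HISAT2, featureCounts, DESeq2 and GRCm38, and versions and strand settings are not given in the sources used here. The authors deposited raw counts per gene, which are whole numbers, and TPM. In the 15583 genes above 20 counts in all 4 libraries, deposited TPM and counts differed by 1 factor per library after 1 length per gene, so TPM is the counts rescaled. Gene starts in the table match none of the members in GENCODE M21, so GENCODE M21 (GRCm38) positions are printed, without any conversion.

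Counts were scaled by TMM over the 4 libraries (edgeR 4.0.16 in R 4.3.3, factors 0.973 to 1.02). The log2FC took a prior count of 0.125. Genes whose larger count was 10 or more were tested, and those past 2-fold were counted. Ratios have exact 95% Clopper-Pearson intervals and the differences of 2 responses delta-method intervals. In the log2FC a count of 0 took only that prior count, without a further floor. Analysis used Python 3.11.15, numpy 2.4.6, pandas 2.3.3, scipy 1.17.1 and matplotlib 3.10.9. With 1 library per group no pairwise spread can be estimated. A fit of genotype and OVA as additive terms, with 1 residual degree of freedom, was not run. The log2FC and its counting intervals were tested on simulated counts with known folds for the 4 comparisons, and the other steps were not simulated.

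The members, gene lists and alternatives were chosen with earlier results of these data known. The text names all 10 members, other cathepsins with at least 100 counts in the highest library, up to 5 genes per list with the largest OVA-induced difference and at least 100 counts, the 3 genes nearest to each member that ranged over 2-fold, and genes a sentence needs for its range. Genes with under 100 counts named beside them, and the neighbours of Ctsk and Ctss, were chosen after their values were seen. Alternatives were DESeq2 1.42.0 size factors, total counts, TMM on the 2 compared libraries, TPM with a pseudocount of 0.1, a prior count of 2, counts thinned to the smallest library, subtracting a running median of the log2FC by transcript length (501 genes), count minimums of 1 and 50, and a 1.5-fold threshold. A count minimum of 1000, added after seeing the data, chose the grey points in the plot of OVA responses. Counts of members are not set against those genes, because Ctsk passed that minimum through the OVA-induced WT library alone.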

Additional observations from a re-analysis of the deposited data

Results flagged for a closer look

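The genotype difference changed sign between normal and OVA-induced lungs for Ctsd and Lamp2, the genes whose counting intervals lay on opposite sides of 0. Those intervals cover counting error only. Ctsd had 10124 counts in each normal library, so its normal difference came from the library scaling. The signs of Lamp1 (0.01 and -0.53) and Ctse (0.33 and -0.20) also differed, but at least 1 interval of each included 0. For Ctsd it was 0.07 between the normal and -1.83 between the OVA-induced libraries, a difference of -1.90 on the log2 scale. For Lamp2 the values were 0.05 and -0.05, a difference of -0.10, and its sign in the OVA-induced comparison changed under other scalings. The OVA response ran in opposite directions in WT and Rab44-KO lungs for Ctsl (0.16 and -0.59, a difference of -0.75), Lamp1 (0.23 and -0.31, -0.54) and Cd63 (0.99 and -0.13, -1.11). The sign of Ctsl in WT changed with TPM (-0.01), and that of Cd63 in Rab44-KO with the length trend removed (0.04). With 1 library in each group none of these differences was tested.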

How the results depend on the processing

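The values above rest on 1 library per group, so no library could be left out. No paired analysis was possible because the labels carry no replicate numbers and each group is 1 library. The median log2FC of the 10 genes between the OVA-induced libraries, -1.14 by TMM, was -1.08 with total counts, -0.81 with TPM and -1.0 with the length trend removed. The OVA-induced over normal median was 0.81 in WT and 0.18 in Rab44-KO lungs with TPM, and the median difference of the responses, -1.04 by TMM, was -0.74 with TPM and -0.92 with the length trend removed. At 1.5-fold, 7 genes were higher in WT lungs after OVA induction and 1 (Ctsl) was lower in Rab44-KO lungs, a call lost in 6 of 7 alternatives. Of these summary values 9 moved and 70 did not. A count was taken as moved when it changed by over 1.5 times or from 0. A median was taken as moved past the median reach of the members' counting intervals. The 70 include counts of 0 that stayed at 0. They also include the fall from 6 genes over 2-fold lower between the OVA-induced libraries to 5 with total counts and 4 with TPM. For single genes 81 values moved and 269 did not. Between the OVA-induced libraries Ctsl stood at -0.52 with TPM, inside 1.5-fold, and Lamp1 at -0.20. Ctsb and Cd63 stood over 2-fold lower between the OVA-induced libraries in 5 of 7 alternatives each. Ctsb stood at -0.95 with total counts and -0.69 with TPM, and Cd63 at -0.94 with TPM and -0.91 with the length trend removed. The difference of responses of Cd63 was inside 2-fold with the same settings, at -0.81 and -0.83. Why the length trend differs between libraries was not tested. Depth limits Ctse, with 36 to 64 counts.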

Other observations

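Genes of MHC class II and its loading, which rely on cathepsins for processing, stood apart in OVA-induced WT lungs as well. Cd74, the invariant chain cut by cathepsin S, had 18251, 18261, 44815 and 15341 counts in the 4 libraries (log2FC -1.56 between the OVA-induced libraries). Of the 11 genes listed, 7 were over 2-fold lower in OVA-induced Rab44-KO and 0 higher, beside 7.34% and 8.40% of all genes. Their median was -1.33, beside -0.02 over all genes, and H2-Ab1 stood at -1.57.

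Among 12 other tetraspanins, 2 were over 2-fold lower in the same comparison and 0 higher, with a median of -0.35, beside 7.34% and 8.40% of all genes. They were Tspan4 at -1.06 (-1.20 to -0.92) and Cd37 at -1.0 (-1.12 to -0.88), and both intervals included 2-fold. From normal to OVA-induced lungs Tspan4 stood at -0.96 in WT and -1.96 in Rab44-KO. Of 9 genes known from osteoclasts, the cell type in which Ctsk is best known, 6 had enough counts to be compared after OVA induction. In the Rab44-KO library 2 of them, Acp5 (-1.56) and Atp6v0d2 (-1.83), were over 2-fold lower and 0 higher, with a median of -0.65. Inside 2-fold, Mmp9 stood at 0.82, Tnfrsf11a at -0.31 and Nfatc1 at 0.23. The calcitonin receptor gene Calcr had 4 to 14 counts and Dcstamp 2 to 14.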
